A study of Arabidopsis thaliana with 6 samples.

Results

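The genes described here encode arabinogalactan proteins and fasciclin-like arabinogalactan proteins of Arabidopsis thaliana. They were taken as every row of the deposited expression table whose gene symbol is AGP or FLA followed by a number. That gave 51 of the 32833 genes of the table, 30 with an AGP symbol and 21 with an FLA symbol. Messenger RNA was measured by RNA sequencing of total RNA from seedlings aged 8 days. There were 3 libraries of the phod2 mutant and 3 libraries of the wild type (WT), which the study calls biological replicates. By its title the series concerns phosphate homeostasis and the plastidial lipoyl synthase LIP1p, which makes the lipoyl cofactor. The phod2 libraries bear the name LIP1 in their descriptions, and the type of the phod2 allele is not given there. The study mentions growth under HP or LP conditions, and no label gives the condition of a library, so both groups are described by genotype alone. Levels are given as FPKM, the deposited fragments per kilobase of exon, scaled to the library total. Each log2 fold change is phod2 over WT. An error after ± is the SD over the 3 libraries for a level and the SE of the fit for a log2 fold change. Gene positions are the table's own and equal those of the TAIR10.1 assembly for all 51 members.

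Arabinogalactan proteins are proteoglycans of the plant cell surface. Their proline residues are hydroxylated and then carry large branched chains of galactose and arabinose, and many are held at the plasma membrane by a glycosylphosphatidylinositol (GPI) anchor. Classical members have a backbone rich in proline, alanine, serine and threonine, the lysine-rich members carry a short basic stretch in it, and arabinogalactan (AG) peptides are very short. The non-classical AGP30 and AGP31 carry a further cysteine-rich domain. Fasciclin-like members add fasciclin domains, known from cell adhesion in Drosophila, and are sorted into groups A to D by sequence. In roots these proteins are known from cell expansion, root hair growth and secondary wall formation.

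The upstream sequences of 4 members are shown, chosen as follows. AGP30 and AGP31 are the non-classical pair with the most unequal change, and AGP17 and AGP9 are the expressed members whose promoter holds the P1BS motif, the site bound by the phosphate response factor PHR1. Each runs 5′ to 3′ from 250 bases before to 50 after the annotated gene start in RefSeq's TAIR10.1 table, where all 51 members have an entry. Capitals mark P1BS (GNATATNC, on either strand) or the TATA box (TATAAA, on the strand of the gene).
AGP30 (chr2:14295304-14295603, minus strand): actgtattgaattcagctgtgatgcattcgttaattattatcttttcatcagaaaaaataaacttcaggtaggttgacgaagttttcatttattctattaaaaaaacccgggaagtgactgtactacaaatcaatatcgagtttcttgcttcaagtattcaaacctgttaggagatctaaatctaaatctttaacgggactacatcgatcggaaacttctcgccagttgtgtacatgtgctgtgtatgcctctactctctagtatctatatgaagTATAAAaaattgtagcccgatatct
AGP31 (chr1:9890966-9891265, minus strand): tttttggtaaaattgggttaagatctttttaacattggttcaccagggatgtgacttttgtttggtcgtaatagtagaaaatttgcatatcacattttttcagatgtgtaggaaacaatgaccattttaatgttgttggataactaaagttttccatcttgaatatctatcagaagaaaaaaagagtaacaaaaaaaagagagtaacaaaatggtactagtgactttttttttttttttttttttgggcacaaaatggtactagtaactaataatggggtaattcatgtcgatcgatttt
AGP17 (chr2:9843884-9844183, plus strand): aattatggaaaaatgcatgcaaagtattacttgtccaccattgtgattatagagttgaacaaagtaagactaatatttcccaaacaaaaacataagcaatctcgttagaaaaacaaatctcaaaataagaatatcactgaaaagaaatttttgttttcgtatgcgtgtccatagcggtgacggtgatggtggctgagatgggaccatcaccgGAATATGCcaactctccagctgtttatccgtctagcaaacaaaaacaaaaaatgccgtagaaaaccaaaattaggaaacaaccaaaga
AGP9 (chr2:6399155-6399454, plus strand): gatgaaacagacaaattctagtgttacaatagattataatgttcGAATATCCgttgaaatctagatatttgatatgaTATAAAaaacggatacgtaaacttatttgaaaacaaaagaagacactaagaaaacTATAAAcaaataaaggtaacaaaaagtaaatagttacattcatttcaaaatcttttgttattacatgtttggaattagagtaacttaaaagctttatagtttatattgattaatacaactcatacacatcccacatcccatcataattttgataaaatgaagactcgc
P1BS began 38 bases before the gene start of AGP17 and 206 bases before that of AGP9. The capitals in AGP30 are a TATAAA that begins 25 bases after its gene start, and AGP31 has no capitals. P1BS was in the promoters of 3 of the 51 members (5.88%), the other being FLA14, and in 6.25% of 27443 promoters of protein-coding genes of the same length. Among tested members it was in 1 of the 17 that fell at least 2-fold and in 1 of the other 25. TATAAA was in 21 of 51 members (41.2%) and in 37.2% of all promoters. The G-box CACGTG, read on both strands, was in 1 member, AGP2 (1.96%), and in 7.68% of all promoters. The root hair element, searched on both strands, was in 0 of 51 members and in 0.867% of all promoters. None of these searched motifs overlapped another in the 4 sequences shown.

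The libraries held 17319308 to 22417595 counts, and 20169 genes of the table had enough counts to be tested. The first principal component of these 6 libraries held 78.3% of the variance. Between 2 libraries, the chi-square of gene counts per degree of freedom was 1.57 to 2.05 within a genotype. It was 20.75 to 24.63 between the genotypes. LIP1P, the gene of the series title, had 387, 425 and 417 counts in phod2 and 769, 558 and 773 in WT, a log2 fold change of -0.74 ± 0.06 (SE, edgeR adjusted p = 4.74e-15). Its counts cover the whole gene, and a mutation that alters the protein alone is not visible there.

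Transcripts of this family were lower in phod2 in most of the members that could be tested, and none was higher. Of the 51 members 42 were tested, and 35 of these fell (83.3%, edgeR adjusted p of 0.05 or less), where 24.6% of all tested genes fell by the same rule. No member rose, against 20.9% of all tested genes. Without adjustment, 0 members were higher at a p under 0.05, and DESeq2 also gave 0 higher at its adjusted p. At least a 2-fold decrease was reached by 17 of the 42 (40.5%), against 5.72% of all tested genes, and a 2-fold increase by 0, against 1.79%. In 36 of the 42 the 3 phod2 libraries all lay below the 3 WT libraries, which held for 23.3% of all tested genes. The median log2 fold change was -0.76 over the tested members and 0.01 over all tested genes, whose quartiles were -0.20 and 0.16. AGP30 and FLA6 passed the filter, which asks for the count minimum in 3 libraries, through their WT libraries, since fewer than 3 phod2 libraries reached it. Both are part of the counts above, and without that filter 34 members fell and 17 fell at least 2-fold. The shares of all tested genes given here apply to the counts by class below as well. The 26 tested AGP genes had a median of -0.93 and the 16 tested FLA genes one of -0.64.

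The members took 0.209%, 0.218% and 0.222% of all counts in the phod2 libraries, against 0.366%, 0.355% and 0.350% in the WT libraries. The means were 0.216 ± 0.00662% and 0.357 ± 0.00823% (SD, n = 3 each), with no overlap. An exact 2-sided permutation test of this share gave p = 0.1, the smallest that 3 against 3 libraries allow. In bulk RNA of seedlings, fewer cells of a type and less RNA per cell cannot be told apart.

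**Figure D1:**
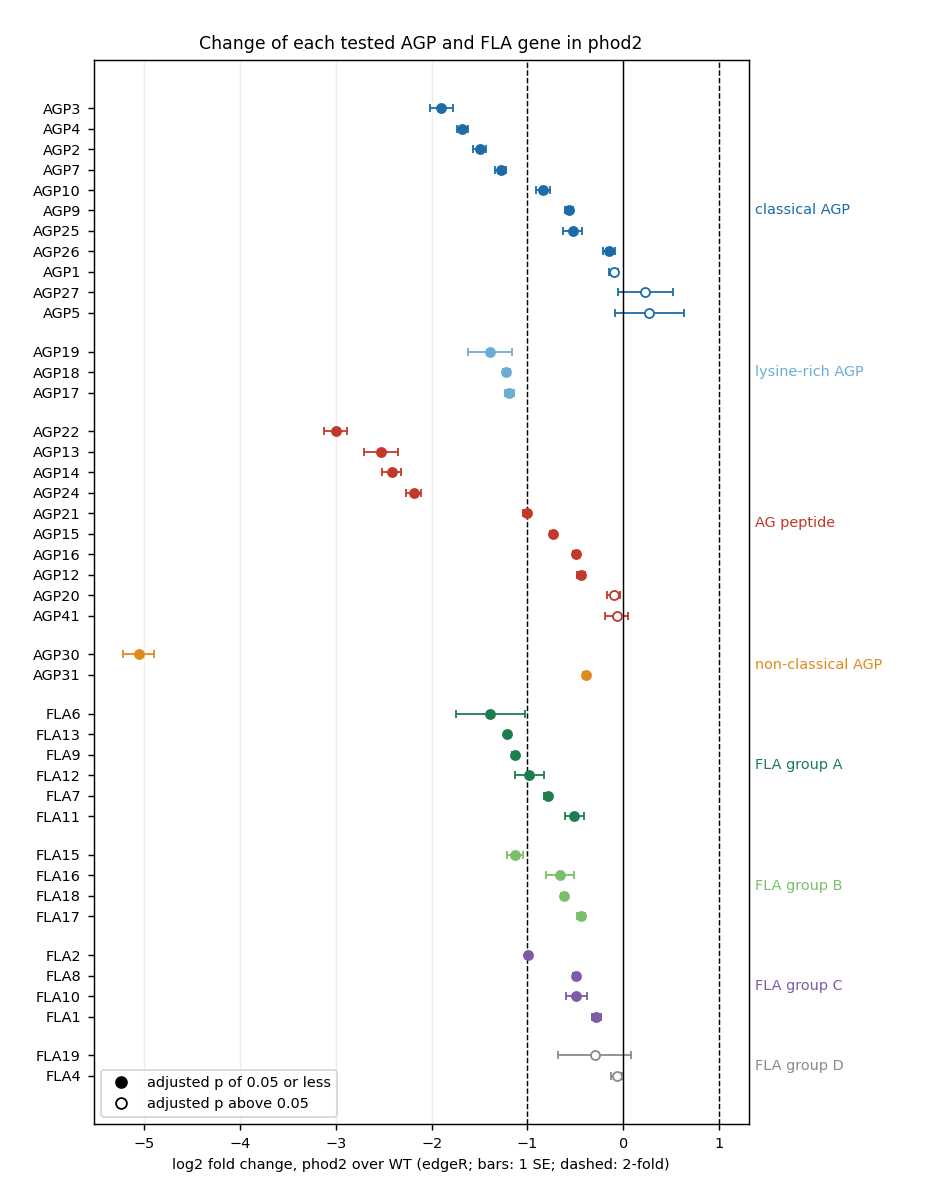
Log2 fold change (phod2 over WT, horizontal axis) of the 42 tested members, grouped by class, with bars of 1 SE. Filled points passed an adjusted p of 0.05 and open points did not, and the dashed lines mark a 2-fold change. AGP30 and FLA6, which passed the filter on low counts through their WT libraries, are among the filled points. AGP30 lies at -5.06, 17 points lie below the lower dashed line, and no filled point is above 0.

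Markers of root hair, endodermis, xylem and leaf were set beside the members, in lists chosen with earlier results of these data known. Of all tested genes 24.6% fell and 20.9% rose, and 5.72% fell and 1.79% rose at least 2-fold. Of 8 root hair markers, all 8 fell, 7 of them at least 2-fold, with a median log2 fold change of -1.89. Their summed level ranged over 13.1 to 14.5 FPKM in phod2 and 41.7 to 48.8 FPKM in WT. Of 8 endodermis markers 7 fell, 6 at least 2-fold, with a median of -1.98 and a summed level of 26.4 to 28.4 FPKM in phod2 against 92.5 to 100.6 FPKM in WT. The exception was ESB1, at 0.53 ± 0.0917 FPKM in phod2 and 0.32 ± 0.09 FPKM in WT, which did not pass the test. MRH6 of the root hair list had 7, 10 and 15 counts in phod2 and 70, 53 and 61 in WT. CASP5 of the endodermis list had 8, 4 and 11 counts in phod2 and 49, 45 and 37 in WT. Both passed the filter on low counts through their WT libraries, where they are higher. Both are among the markers given as fallen at least 2-fold. The 10 xylem and secondary wall markers all fell, 3 at least 2-fold, with a median of -0.81 and a summed level of 90.4 to 96.3 FPKM in phod2 against 153.3 to 156.0 FPKM in WT. Among 8 leaf photosynthesis genes 3 fell and 4 rose, none by 2-fold, with a median of 0.03 and a summed level of 21260 to 21499 FPKM in phod2 against 20271 to 20620 FPKM in WT. No root hair, endodermis, xylem or leaf marker was at 0 in either group, so root and shoot transcripts were both present. The part of these tissues in the values of the AGP and FLA genes was not tested.

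**Figure D2:**
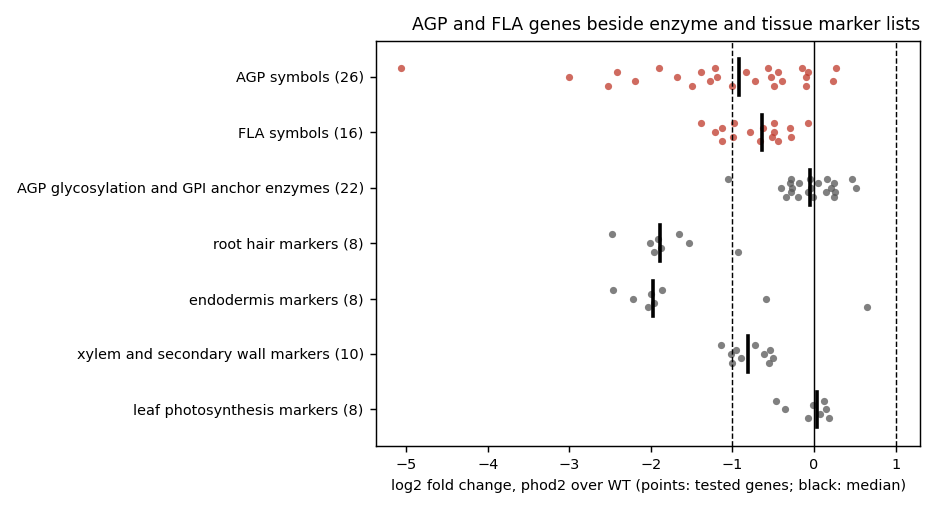
Log2 fold change (phod2 over WT, horizontal axis) of each tested gene (points) in the AGP and FLA genes, the enzymes of their glycosylation and anchoring, and 4 marker lists, with the number of tested genes in parentheses and the median as a black line. The medians are -0.93 for AGP, -0.64 for FLA, -0.05 for the enzymes, -1.89 for root hair, -1.98 for endodermis, -0.81 for xylem and 0.03 for leaf genes.

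The largest decrease of the family was in AGP30 (AT2G33790, chr2:14293561-14295353, minus strand), a non-classical member of 239 residues that is expressed mainly in roots. AGP30 had 0.68, 0.41 and 0.63 FPKM in the phod2 libraries, against 20.0, 19.0 and 17.1 FPKM in the WT libraries. Its highest phod2 library was far below its lowest WT library, and the underlying reads were 14, 9 and 15 counts in phod2 and 509, 375 and 420 in WT. AGP30 passed the filter on low counts through its WT libraries, where it is higher, so no adjusted p is given for it. The log2 fold change was -5.06 ± 0.16 (SE), or 33.2-fold lower in phod2. The value was -3.65 in limma on log2(FPKM + 1), where the added 1 FPKM understates the change of a gene at this level, and -5.18 to -4.87 with any library left out.

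AGP31 (AT1G28290, chr1:9889101-9891015, minus strand), the other non-classical member, encodes a protein of 359 residues that binds pectin and whose transcript is known to be repressed by jasmonate. AGP31 had 107, 112 and 111 FPKM in the phod2 libraries, against 152, 134 and 135 FPKM in the WT libraries. The groups did not overlap, and the log2 fold change was -0.39 ± 0.03 (SE, edgeR adjusted p = 1.77e-15). AGP30 was thus the lower expressed of the pair in both genotypes, and its part of the summed level was small. Together both genes summed to 110.5 ± 2.66 FPKM in phod2 and 159.0 ± 11.4 FPKM in WT (SD, n = 3 each).

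The AG peptides, whose precursors have 58 to 74 residues here, held the next largest decreases. Of 12 genes 10 were tested, 8 fell and 5 fell at least 2-fold, with a median log2 fold change of -0.87. Their summed level was 609.5 ± 9.39 FPKM in phod2 and 1020.5 ± 15.7 FPKM in WT (SD, n = 3 each), 59.7% of the WT value.

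AGP22 had 3.88, 3.05 and 3.40 FPKM in the phod2 libraries, against 27.8, 27.4 and 24.9 FPKM in the WT libraries. AGP22 (AT5G53250, chr5:21603569-21604414, plus strand) thus lay far below WT in every phod2 library, with a log2 fold change of -3.0 ± 0.12 (SE, edgeR adjusted p = 1.57e-30). AGP13 had 3.21, 1.58 and 2.76 FPKM in the phod2 libraries, against 13.7, 12.2 and 16.3 FPKM in the WT libraries. The phod2 libraries of AGP13 (AT4G26320, chr4:13317053-13317640, minus strand) spread widely and were still below all WT libraries, with a log2 fold change of -2.53 ± 0.18 (SE, edgeR adjusted p = 6.86e-19). AGP14 (AT5G56540, chr5:22893151-22893651, plus strand) is known from mutants to affect root hair elongation. AGP14 had 10.5, 8.24 and 11.6 FPKM in the phod2 libraries, against 52.9, 50.6 and 55.2 FPKM in the WT libraries. Its groups were well separated, with a log2 fold change of -2.42 ± 0.10 (SE, edgeR adjusted p = 2.55e-30). AGP24 had 11.1, 11.97 and 9.09 FPKM in the phod2 libraries, against 46.5, 45.8 and 49.96 FPKM in the WT libraries. All WT values of AGP24 (AT5G40730, chr5:16301072-16301748, plus strand) were above all phod2 values, with a log2 fold change of -2.19 ± 0.08 (SE, edgeR adjusted p = 6.02e-31). The decreases of these 4 peptides were 4.58- to 7.99-fold. The root hair, endodermis and xylem markers given above all had lower summed levels in phod2, and a link of the peptides to any of these tissues was not tested.

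The AG peptides with the highest levels changed less. AGP21 (AT1G55330, chr1:20648465-20648891, minus strand) is known in root hair cell fate, where it acts with its attached sugars. AGP21 had 111, 114 and 101 FPKM in the phod2 libraries, against 204, 216 and 218 FPKM in the WT libraries. The groups did not overlap, and the log2 fold change was -1.01 ± 0.04 (SE, edgeR adjusted p = 4.2e-28), at the edge of the 2-fold rule, which it missed in 6 of 15 alternative settings (-1.0 to -0.96). An antisense gene overlaps 85.2% of AGP21 and had 0 counts in all libraries. AGP15 had 157, 155 and 152 FPKM in the phod2 libraries, against 242, 249.6 and 254 FPKM in the WT libraries. AGP15 (AT5G11740, chr5:3783930-3784963, plus strand) had the highest mean level of any AG peptide in WT and a log2 fold change of -0.73 ± 0.03 (SE, edgeR adjusted p = 3.28e-30), with no overlap between groups. AGP16 had 151, 154 and 169 FPKM in the phod2 libraries, against 214, 217 and 215 FPKM in the WT libraries. The WT libraries of AGP16 (AT2G46330, chr2:19018264-19019364, minus strand) were nearly equal and above all phod2 libraries, with a log2 fold change of -0.49 ± 0.03 (SE, edgeR adjusted p = 8.41e-21). AGP12 averaged 128.6 ± 9.81 FPKM in phod2 and 169.4 ± 4.49 FPKM in WT, a log2 fold change of -0.44 ± 0.04 (SE). AGP20 and AGP41 did not pass the test, at -0.10 and -0.07. AGP20 averaged 22 ± 0.491 FPKM in phod2 and 22.9 ± 0.106 FPKM in WT, and AGP41 9.68 ± 0.838 FPKM in phod2 and 9.88 ± 0.879 FPKM in WT.

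**Figure D3:**
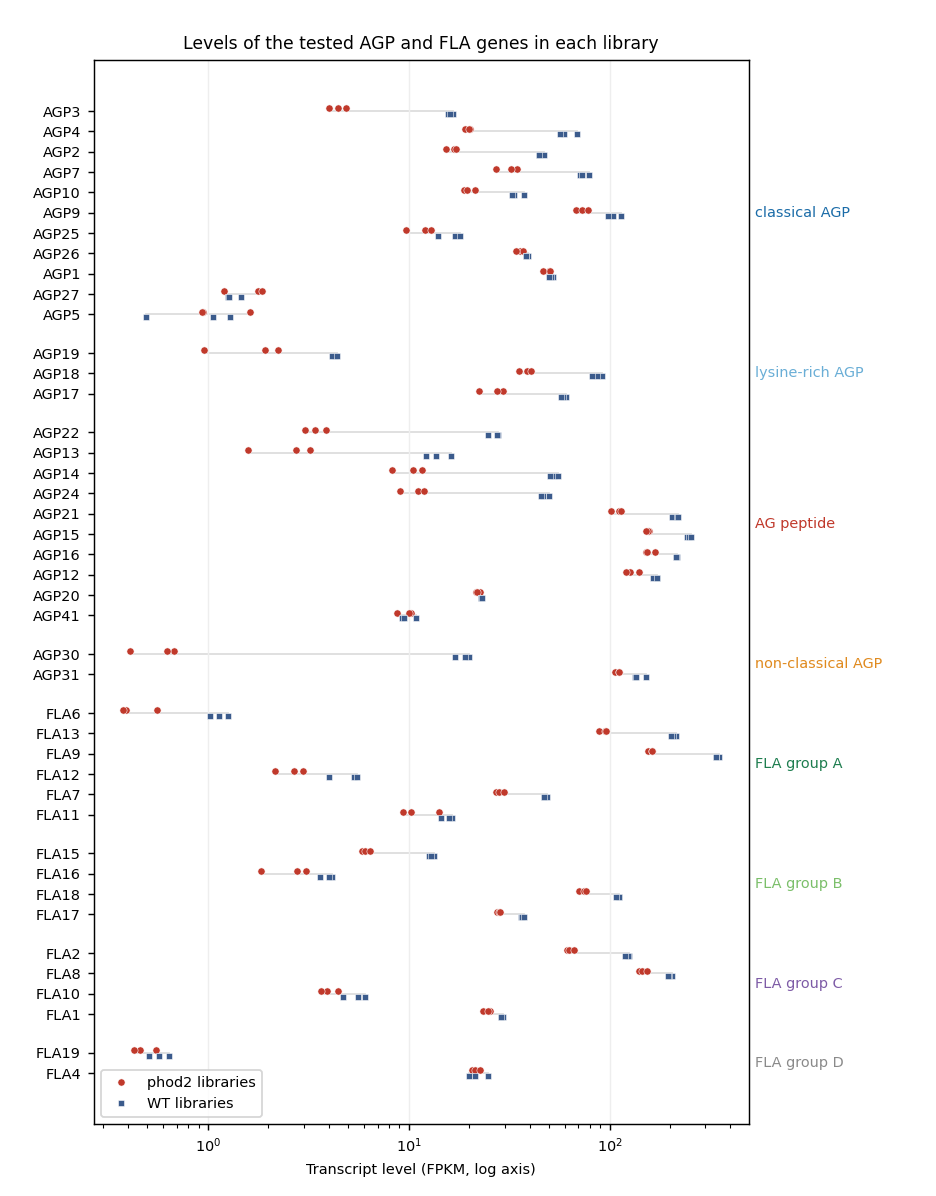
FPKM (horizontal log axis) of the 42 tested members in each library, by class, with red circles for phod2 and blue squares for WT. AGP30 shows the widest gap between the groups (0.41 to 0.68 FPKM in phod2, 17.1 to 20.0 FPKM in WT), FLA9 has the highest WT values (337 to 351 FPKM), and the groups of AGP1, AGP5, AGP27, AGP41, FLA4 and FLA19 overlap.

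Classical AGP genes were split between members that fell and members near their WT level. Of 13 genes 11 were tested, 8 fell and 4 fell at least 2-fold, with a median of -0.57. They summed to 264.8 ± 11.6 FPKM in phod2 and 446.3 ± 22.9 FPKM in WT (SD, n = 3 each). AGP3 had 4.47, 4.86 and 4.00 FPKM in the phod2 libraries, against 15.7, 16.7 and 16.1 FPKM in the WT libraries. In AGP3 (AT4G40090, chr4:18580827-18581696, minus strand) the decrease was the largest of the class, -1.90 ± 0.12 (SE, edgeR adjusted p = 2.08e-21) on the log2 scale with no overlap. AGP4 (AT5G10430, chr5:3277488-3278461, minus strand), known as JAGGER, acts in the ovule to stop further pollen tubes from entering. AGP4 had 19.2, 20.2 and 19.9 FPKM in the phod2 libraries, against 68.8, 59.6 and 56.6 FPKM in the WT libraries. The phod2 libraries of AGP4 were nearly equal and below WT, with a log2 fold change of -1.68 ± 0.06 (SE, edgeR adjusted p = 6.33e-32). An antisense gene over 60.1% of AGP4 had 0 counts in all libraries. AGP2 had 15.3, 16.9 and 17.2 FPKM in the phod2 libraries, against 44.4, 47.1 and 44.4 FPKM in the WT libraries. The log2 fold change of AGP2 (AT2G22470, chr2:9538127-9538963, minus strand) was -1.50 ± 0.07 (SE, edgeR adjusted p = 1.83e-27), and its groups did not overlap. AGP7 had 27.4, 34.5 and 32.4 FPKM in the phod2 libraries, against 79.0, 70.9 and 72.8 FPKM in the WT libraries. AGP7 (AT5G65390, chr5:26128581-26129547, minus strand) varied more between the phod2 libraries and was below WT in each, with a log2 fold change of -1.28 ± 0.06 (SE, edgeR adjusted p = 1.28e-28).

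AGP9 (AT2G14890, chr2:6399405-6401149, plus strand), one of the 2 P1BS promoters above, had the highest mean level of the classical class. AGP9 had 68.3, 72.6 and 78.3 FPKM in the phod2 libraries, against 114, 104 and 98.3 FPKM in the WT libraries. Its groups did not overlap, and the log2 fold change was -0.57 ± 0.04 (SE, edgeR adjusted p = 5.34e-20). AGP10 and AGP25 fell by 0.84 ± 0.07 and 0.53 ± 0.10 on the log2 scale (SE). AGP10 averaged 19.9 ± 1.27 FPKM in phod2 and 34.6 ± 2.57 FPKM in WT, and AGP25 11.6 ± 1.67 FPKM in phod2 and 16.4 ± 2.11 FPKM in WT. Antisense genes cover 40.6% of AGP10, with 0 counts in all libraries, and 61.1% of AGP26, with 0 to 4 counts in phod2 and 1 to 3 in WT. AGP26 averaged 35.8 ± 1.4 FPKM in phod2 and 38.6 ± 0.423 FPKM in WT, and its small decrease of -0.15 ± 0.06 (SE, edgeR adjusted p = 0.0458) missed the threshold in 10 of 15 alternative settings, among them DESeq2 and all but 1 of the fits without a library. Its adjusted p ranged over 0.0371 to 0.187 in the alternatives. AGP1, at 49.1 ± 1.93 FPKM in phod2 and 51 ± 1.05 FPKM in WT, did not pass the test. AGP5 and AGP27 were near 1 FPKM in both groups, at log2 fold changes of 0.27 ± 0.36 and 0.23 ± 0.29 that did not pass either. The AGP5 value lay between -0.06 and 0.61 over the alternatives and was below 0 without WT replicate 3 or phod2 replicate 2.

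The 3 lysine-rich AGP genes all fell at least 2-fold, with a median of -1.22. They summed to 66.4 ± 5.57 FPKM in phod2 and 149.7 ± 6.62 FPKM in WT (SD, n = 3 each), 44.4% of the WT value. AGP18 (AT4G37450, chr4:17605538-17607050, minus strand) is required for the selection of the megaspore in the ovule. AGP18 had 35.5, 38.8 and 40.7 FPKM in the phod2 libraries, against 91.9, 86.3 and 81.7 FPKM in the WT libraries. No phod2 library came near a WT library, and the log2 fold change was -1.22 ± 0.04 (SE, edgeR adjusted p = 1.24e-32). AGP17 (AT2G23130, chr2:9844134-9845385, plus strand), known as RAT1, is needed for Agrobacterium to bind to roots, and its promoter is shown above. AGP17 had 22.3, 29.4 and 27.4 FPKM in the phod2 libraries, against 60.4, 58.6 and 57.3 FPKM in the WT libraries. Its log2 fold change was -1.19 ± 0.05 (SE, edgeR adjusted p = 3.25e-27), with no overlap. AGP19 (AT1G68725, chr1:25809298-25810130, plus strand), whose mutant grows slowly, was the weakly expressed gene of the class. AGP19 had 2.23, 1.93 and 0.96 FPKM in the phod2 libraries, against 4.30, 4.17 and 4.39 FPKM in the WT libraries. The phod2 libraries spread widely, at 30, 28 and 15 counts in phod2 and 72, 54 and 71 in WT, with no overlap with WT, and the log2 fold change was -1.39 ± 0.23 (SE, edgeR adjusted p = 9.65e-07). An antisense gene over 61.7% of AGP19 had 3 to 15 counts in phod2 and 11 to 15 counts in WT, and strand use is not given in the sources used here.

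**Figure D4:**
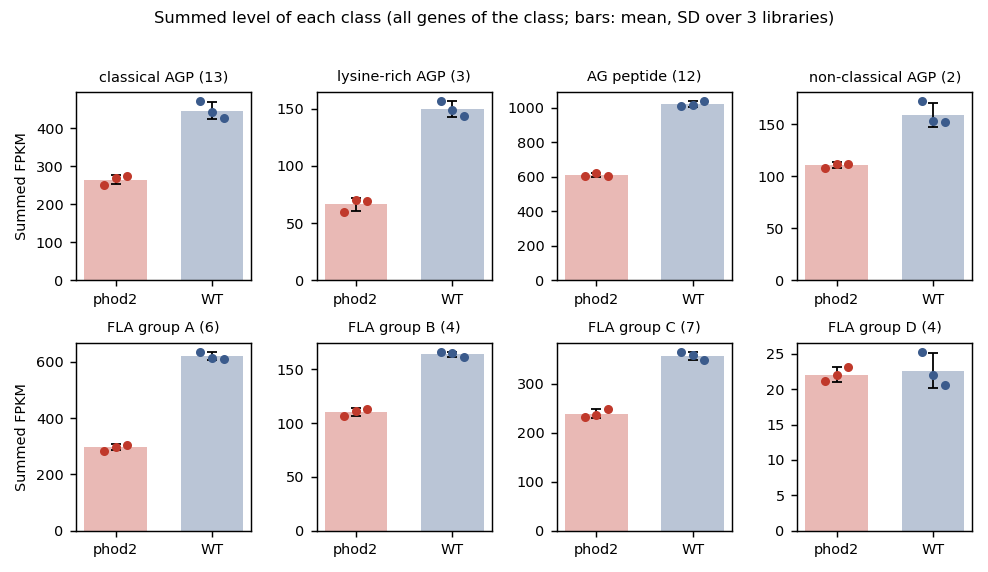
Summed FPKM of all genes of each class (vertical axes, each from 0) in phod2 (left bar) and WT (right bar), with the number of genes in parentheses, bars for the mean, error bars for the SD and points for the 3 libraries of each group. In 7 of the 8 classes every phod2 library is below every WT library, and in FLA group D the libraries overlap (21.1 to 23.1 FPKM in phod2, 20.6 to 25.3 FPKM in WT).

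The FLA genes of group A, which have a single fasciclin domain, all fell. Of its 6 genes 3 fell at least 2-fold, the median was -1.06, and the summed level was 295.8 ± 10.7 FPKM in phod2 and 619.9 ± 14 FPKM in WT (SD, n = 3 each), 47.7% of the WT value. FLA9 (AT1G03870, chr1:982381-983544, minus strand) had the highest WT level of all 51 members. FLA9 had 156, 162 and 162 FPKM in the phod2 libraries, against 351, 338 and 337 FPKM in the WT libraries. Each phod2 library held less than any WT library by a wide margin, and the log2 fold change was -1.13 ± 0.03 (SE, edgeR adjusted p = 2.29e-41). FLA13 had 88.4, 94.5 and 96.2 FPKM in the phod2 libraries, against 215, 208 and 202 FPKM in the WT libraries. FLA13 (AT5G44130, chr5:17760865-17762089, plus strand) changed by -1.21 ± 0.03 (SE, edgeR adjusted p = 2.09e-39) on the log2 scale with no overlap. FLA6 had 0.39, 0.56 and 0.38 FPKM in the phod2 libraries, against 1.02, 1.26 and 1.14 FPKM in the WT libraries. FLA6 (AT2G20520, chr2:8840557-8841565, plus strand) rests on 7, 11 and 8 counts in phod2 and 23, 22 and 25 in WT. It is among the 3 genes of the group past 2-fold. FLA6 passed the filter on low counts through its WT libraries, where it is higher, so no adjusted p is given for it. Its log2 fold change was -1.39 ± 0.36 (SE), and -0.57 in limma on log2(FPKM + 1).

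FLA11 and FLA12 are known from the secondary walls of stems, where they affect cellulose and stiffness. FLA11 averaged 11.2 ± 2.59 FPKM in phod2 and 15.6 ± 0.932 FPKM in WT, a log2 fold change of -0.51 ± 0.10 (SE). FLA12 averaged 2.6 ± 0.416 FPKM in phod2 and 4.97 ± 0.841 FPKM in WT, a log2 fold change of -0.98 ± 0.15 (SE). The summed levels of the xylem, root hair and endodermis markers given above were all lower in phod2, and a link of FLA11 or FLA12 to any of these tissues was not tested. FLA12 lay just short of the 2-fold rule and passed it without phod2 replicate 2 (-1.09) or without WT replicate 2 (-1.10). FLA7 averaged 28.3 ± 1.26 FPKM in phod2 and 47.8 ± 1.08 FPKM in WT, a log2 fold change of -0.79 ± 0.04 (SE).

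All 4 FLA genes of group B fell, and 1 did so at least 2-fold. The median was -0.64, and the summed level was 110.5 ± 3.30 FPKM in phod2 and 164.2 ± 2.27 FPKM in WT (SD, n = 3 each). FLA18 had 70.6, 74.5 and 76.4 FPKM in the phod2 libraries, against 112, 112 and 107 FPKM in the WT libraries. FLA18 (AT3G11700, chr3:3698658-3701514, plus strand) carried most of this sum, with a log2 fold change of -0.62 ± 0.03 (SE, edgeR adjusted p = 3.86e-26) and no overlap. FLA17 had 27.5, 28.1 and 28.4 FPKM in the phod2 libraries, against 36.4, 36.6 and 37.7 FPKM in the WT libraries. The spread of FLA17 (AT5G06390, chr5:1952505-1955796, plus strand) within each group was small, and its log2 fold change was -0.44 ± 0.04 (SE, edgeR adjusted p = 6.23e-15). FLA15 had 5.85, 6.08 and 6.39 FPKM in the phod2 libraries, against 13.4, 12.7 and 12.9 FPKM in the WT libraries. FLA15 (AT3G52370, chr3:19417372-19419913, plus strand) was the gene past 2-fold, at -1.13 ± 0.08 (SE, edgeR adjusted p = 5.29e-19) on the log2 scale with no overlap. FLA16, which affects stem strength and cellulose, averaged 2.57 ± 0.659 FPKM in phod2 and 3.92 ± 0.285 FPKM in WT, a log2 fold change of -0.66 ± 0.15 (SE). An antisense gene over 56.7% of FLA16 had 4 to 10 counts in phod2 and 4 to 13 counts in WT.

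In group C 4 of 7 FLA genes were tested, and these 4 fell by less than 2-fold, with a median of -0.49. The 7 genes summed to 238.4 ± 9.45 FPKM in phod2 and 356.8 ± 8.18 FPKM in WT (SD, n = 3 each). FLA8 had 140.3, 145 and 153 FPKM in the phod2 libraries, against 204, 199 and 195 FPKM in the WT libraries. FLA8 (AT2G45470, chr2:18742477-18744322, minus strand) had the highest level of the group and a log2 fold change of -0.49 ± 0.03 (SE, edgeR adjusted p = 4.79e-23), with no overlap. FLA2 had 61.1, 62.7 and 66.9 FPKM in the phod2 libraries, against 125, 123 and 119 FPKM in the WT libraries. FLA2 (AT4G12730, chr4:7491227-7493080, minus strand) did not overlap between groups, changed by -0.99 ± 0.03 (SE, edgeR adjusted p = 4.97e-35) on the log2 scale, and passed the 2-fold rule without phod2 replicate 3 (-1.03) or without WT replicate 3 (-1.01). FLA10 averaged 4 ± 0.393 FPKM in phod2 and 5.46 ± 0.692 FPKM in WT, a log2 fold change of -0.49 ± 0.11 (SE). FLA1, which is known to act in lateral root formation and shoot regeneration, averaged 24.6 ± 0.99 FPKM in phod2 and 29 ± 0.43 FPKM in WT, a log2 fold change of -0.28 ± 0.05 (SE).

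Group D was the class in which no tested gene passed the test in edgeR or DESeq2, and 0 of its 2 tested genes had an unadjusted p under 0.05. FLA4 (AT3G46550, chr3:17136346-17138259, minus strand), known as SOS5, acts with the FEI receptor kinases in root growth and salt tolerance. FLA4 had 20.6, 21.5 and 22.6 FPKM in the phod2 libraries, against 24.8, 21.4 and 19.9 FPKM in the WT libraries. The groups overlapped, and the log2 fold change was -0.07 ± 0.06 (SE, edgeR adjusted p = 0.316). FLA19 had 0.46, 0.55 and 0.43 FPKM in the phod2 libraries, against 0.51, 0.57 and 0.64 FPKM in the WT libraries. FLA19 (AT1G15190, chr1:5226982-5228202, plus strand) was barely detected, its groups overlapped, and its log2 fold change was -0.30 ± 0.38 (SE, edgeR adjusted p = 0.546).

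The 9 members that were not tested had at most 15 counts in a library. AGP6 and AGP11, which act in pollen, had at most 13 and 5 counts, AGP40 at most 15, FLA5 at most 4, and FLA20 and FLA21 at most 1 each. AGP23, FLA3 and FLA14 had 0 counts in all 6 libraries, and FLA3 and FLA14 are known from pollen. Antisense genes cover 96.5% of FLA3 and 100% of FLA14 and had 87 to 96 and 1031 to 1251 counts in phod2, against 69 to 103 and 855 to 1106 in WT. Depending on how reads over both strands were assigned, the value of 0 is therefore uncertain. The 6 pollen markers were not tested either, and summed to 0.08 to 0.11 FPKM in phod2 and 0.03 to 0.16 FPKM in WT.

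Members with alike transcripts were set side by side. Each transcript was compared with all others by blastn, and no member had a near-identical copy (at least 95% identity over at least 30% of its length). FLA8 and FLA10 were 81.0% identical over the aligned 74.6% of FLA8, and both changed by -0.49 on the log2 scale. AGP13 and AGP14 (77.1% over 37.1% of AGP13) changed by -2.53 and -2.42. FLA13 and FLA9 (75.9% over 75.4% of FLA9) changed by -1.21 and -1.13, and FLA18 and FLA17 (80.4% over 65.9% of FLA18) by -0.62 and -0.44. In other pairs the values lay further apart. FLA15 changed by -1.13 and FLA16 by -0.66 at 78.8% identity, AGP21 by -1.01 and AGP12 by -0.44 at 75%, and FLA12 by -0.98 and FLA11 by -0.51 at 67.1%. AGP3 changed by -1.90 and AGP2 by -1.50 at 67.4%, AGP4 by -1.68 and AGP7 by -1.28 at 68.7%, and FLA6 by -1.39 and FLA9 by -1.13 at 70.1%. AGP25 fell while AGP27, 64.4% identical to it, was at 0.23 ± 0.29 and did not pass. The widest gap was between AGP30 and AGP31, whose log2 fold changes of -5.06 and -0.39 differ by 4.66 at 72.7% identity over 35.4% of AGP30. Differences between the members of a pair were not tested.

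**Figure D5:**
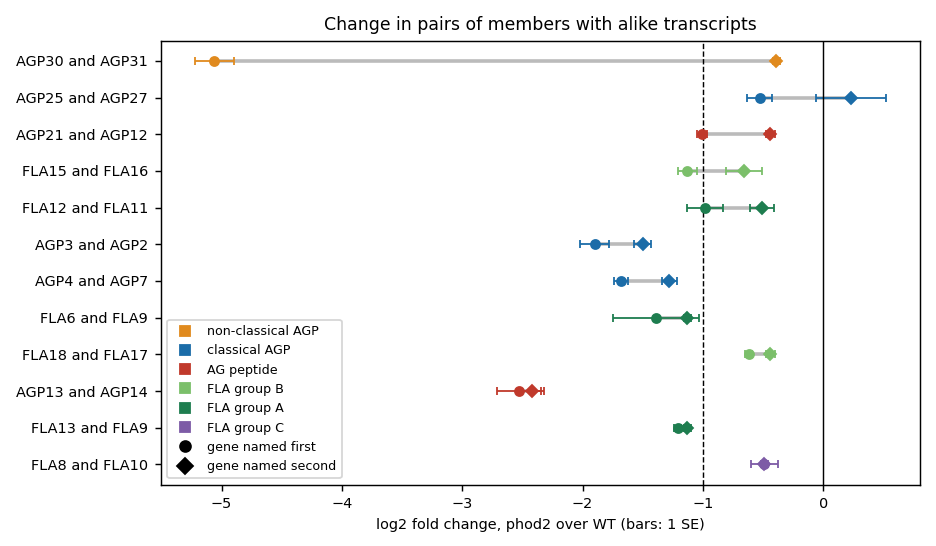
Log2 fold change (phod2 over WT, horizontal axis) of both members of each of the 12 tested pairs with alike transcripts, joined by a grey bar, with circles for the gene named first, diamonds for the gene named second, bars of 1 SE and the dashed line at a 2-fold decrease. AGP30 and AGP31 lie 4.66 apart, and FLA8 and FLA10 lie at the same value of -0.49.

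The enzymes that build the sugar chains and the anchor were set beside the proteins they modify. Of 25 listed genes 22 were tested, 8 fell, 3 rose and 11 did not pass the test, where 24.6% of all tested genes fell and 20.9% rose. Their median was -0.05, near the 0.01 of all tested genes, and counts over 22 genes this near the background are not read as a result about the enzymes. Their summed level was 183.6 ± 2.12 FPKM in phod2 and 189.4 ± 2.16 FPKM in WT (SD, n = 3 each). The prolyl hydroxylase genes P4H2 and P4H5, whose products act on the protein backbone, fell by 0.30 ± 0.06 and 0.28 ± 0.05 on the log2 scale (SE). Of the galactosyltransferases that start the chains on hydroxyproline, HPGT1 and GALT4 changed by -0.20 ± 0.07 and -0.40 ± 0.10, while HPGT3 rose by 0.47 ± 0.10. GALT29A, which extends side chains of galactose, rose by 0.25 ± 0.10. FUT6, a fucosyltransferase of these chains, was the gene of the list past 2-fold, at -1.05 ± 0.18 (SE, edgeR adjusted p = 2.85e-06). It averaged 1.18 ± 0.242 FPKM in phod2 and 2.36 ± 0.428 FPKM in WT (SD, n = 3 each), and passed 2-fold in neither limma fit nor without replicate 3 of phod2 or WT. The glucuronosyltransferase genes GLCAT14B and GLCAT14C changed by -0.27 ± 0.08 and -0.34 ± 0.08. For the GPI anchor, PNT1 changed by -0.28 ± 0.11 and SETH2 rose by 0.26 ± 0.07. HPGT1, GALT29A and PNT1 missed the threshold in DESeq2.

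Features of the genes outside their symbols were also set beside the values. Of the 51 members 38 have a single exon. The table annotates 27 members as anchored to a membrane. Of the 24 tested among these 18 fell and 6 fell at least 2-fold, with a median of -0.50. Of the 18 tested members without that annotation 17 fell and 11 fell at least 2-fold, with a median of -1.16. Of all tested genes 24.6% fell and 5.72% fell at least 2-fold. The difference between these medians was not tested. The annotation is the table's own and divides alike members, since AGP14 has it and AGP13 does not. It may be incomplete, so the split is not read as one of anchored against unanchored proteins.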

How the data were processed

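Per the labels, 3 phod2 and 3 WT libraries of seedlings were sequenced. How reads were aligned and counted, and whether by strand, is not given in the sources used here, and the genome build in the submitters' processing notes is a mouse build. The deposited table holds whole-number counts per gene, per the file headers. It also holds FPKM, made by the authors, which equal the count divided by the deposited exonic size and the library total to within 0.005. Positions are printed 1-based, as in the table.

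Counts were tested over all genes by quasi-likelihood in edgeR 4.0.16 under R 4.3.3 (filterByExpr with a count minimum of 10, TMM factors of 0.985 to 1.017, genotype as the term), with Benjamini-Hochberg adjustment over the 20169 genes tested. A gene rose or fell at an adjusted p of 0.05 or less, and the 2-fold rule is the study's. The SE is the absolute log2 fold change over the square root of F. The edgeR step was also run on counts simulated from its own fitted dispersions, which cannot show how well its model suits these libraries. P-values reflect only how these libraries vary, which may be technical. The spread within groups beyond counting noise was small, with a common coefficient of variation of 2.83% in edgeR. Alternatives were DESeq2 1.42.0, limma 3.58.1 on log2 FPKM with a pseudocount of 1 or 0.1, other scalings and filters, a replicate block and each library left out.

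Transcripts were compared with BLAST 2.17.0, and figures drawn with matplotlib 3.10.9. Classes, enzyme and marker lists and the members were chosen with earlier results of these data known. Values per library are given for members past 2-fold and for the 2 with the highest mean FPKM of each class. Enzymes are named where they passed the adjusted p. The other enzymes of the list are counted and not named. For 3 of these, no source used here pairs the identifier with the listed name.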

Additional observations from a re-analysis of the deposited data

How the results depend on the processing

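Over 15 alternatives, 30 to 35 members fell by the adjusted p (35 as reported), 13 to 18 fell at least 2-fold (17 as reported) and 0 rose. Of the 35 members that fell, 34 kept the call in every alternative that tested them, the exception being AGP26. Of the 17 past 2-fold 13 stayed past it in every alternative that tested them. The others were AGP21 in 6 alternatives, and AGP19, FLA6 and FLA15 in limma on log2(FPKM + 1), at -1.0, -0.57 and -0.98. With that fit FLA group B had 0 genes past 2-fold. FLA group C had 0 to 1 gene past 2-fold when a library was left out. Among the enzymes, 5 fell and 0 were past 2-fold with a filter of at least 5 FPKM in 3 libraries, which tests fewer genes. With library totals in place of TMM 6 enzymes rose, and the median of all genes shifted by 0.05. The enzymes had 0 genes past 2-fold in both limma fits and 0 to 1 when a library was left out. With a replicate block 34 members fell and 17 fell at least 2-fold, the change being AGP26 (adjusted p = 0.0536, edgeR). Samples that share a replicate number did not deviate together (correlations of -0.021, 0.010 and -0.008). With 3 libraries per group this does not settle whether the numbers pair them. The difference in the share of counts was -0.144 to -0.136 percentage points without 1 library, and -0.141 as reported. Where a call changed, the cause was not tested. Depth limits the members near 1 FPKM or below, such as AGP5, AGP27, FLA6 and FLA19, where a library held 7 to 32 counts. AGP30 was that low in phod2 alone, at 14, 9 and 15 counts.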

Other observations

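The table describes 4 further genes as arabinogalactan or fasciclin-like family proteins without giving them such a symbol, and they are outside the counts above. AT4G16980 averaged 159.8 ± 9.07 FPKM in phod2 and 195.3 ± 9.54 FPKM in WT (SD, n = 3 each), a level near that of the highest AG peptides, and its log2 fold change was -0.33 ± 0.03 (SE, edgeR adjusted p = 2.65e-13). AT5G26730 had 6, 5 and 4 counts in phod2 and 20, 16 and 23 counts in WT. It passed the filter on low counts through its WT libraries, where it is high, so no test of it is given. AT4G12950 had at most 3 counts in a library, and AT5G05650 had 0 in all 6.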
